A study of Drosophila melanogaster with 4 samples.

Results

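The clusters described here are narrow patches of H4K16ac that lie beside the wide H4K16ac domains of the Drosophila melanogaster X chromosome. They were chosen from the combined list of enriched clusters by position and width: on the X, under 10000 bp wide, and with at most 5000 bp between their edge and that of the nearest X cluster of 10000 bp or more. This rule gave 320 clusters out of 1270 narrow X clusters, 1490 X clusters and 5728 clusters in all. The other 950 narrow X clusters, farther from any wide cluster, are called isolated, and the X held 220 wide clusters. Because widths and positions chose the 320 clusters, their distances, widths and scores in the combined list are given as a description.

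Chromatin came from nuclei of the heads of wild type Oregon-R flies labelled as mixed adults, with no treatment and no sex stated. The series held 4 samples, which were 2 ChIP replicates precipitated with an antibody against H4K16ac and 2 inputs, each labelled as the control of 1 ChIP replicate. The lists of the ChIP replicates and the combined list of both were used, and no separate list of an input was analysed here. The labels do not tell if each replicate was a fly collection of its own, and the spread between replicates may therefore be technical. The lists hold no read numbers, so the depth behind each cluster is unknown. Per the file headers coordinates are on FlyBase release 5, and they are 1-based. No annotation of that release was used, so no gene is named at these positions.

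H4K16ac denotes histone H4 acetylated on a particular tail lysine, a mark known to loosen the packing of nucleosomes. In flies the acetyltransferase MOF places it. In males MOF acts within the MSL complex, which binds high-affinity sites on the X and spreads from there over active genes, where the mark accompanies dosage compensation. Outside such domains MOF also acts at promoters of active genes.

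The 320 narrow clusters spanned 1043 kb, or 4.65% of the X. They were 1001 to 9844 bp wide, with a median of 2450 bp. The median gap to the wide neighbour was 1048 bp, with quartiles of 282 and 2700 bp. The 2 clusters just inside the limit lay 4962 and 4999 bp from their neighbours, and the first outside it lay 5012 and 5028 bp away. The widest member measured 9844 bp, and the narrowest wide cluster 10097 bp. Members lay on both sides of the domains, 167 on the left and 153 on the right, and 32 of them had a wide cluster within 5 kb on each side. Of the 220 wide clusters 173 had at least 1 such neighbour, 75 had exactly 1, 63 had 2 and 35 had 3 or more. The wide clusters with and without narrow neighbours had median scores of 2.03 and 2.17, with interquartile ranges that overlapped. No other cluster lay between the domain and 231 of the members, while 89 had at least 1 narrow cluster in between.

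Counted over the full 5 kb, narrow clusters were denser beside the domains than in all the length farther away. Within 5 kb of a wide cluster there were 169 narrow clusters per Mb in replicate 1 and 193 in replicate 2. Farther away there were 59.1 and 59.4 per Mb. The ratio was 2.85 in replicate 1 and 3.25 in replicate 2 (mean 3.05 ± 0.28, SD, n = 2), and it was 1.97 in the combined list. The distance here is that of the edge nearest to the domain, and the denominator is the length of the X outside wide clusters at that distance. The length farther away includes stretches beyond 50000 bp, where narrow clusters were sparsest in each list. From 2000 to 4999 bp the density was below that from 5000 to 9999 bp in the combined list and in replicate 1. In replicate 2 it was above. No test over clusters was made, since all clusters of a list share 1 library.

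**Figure D1:**
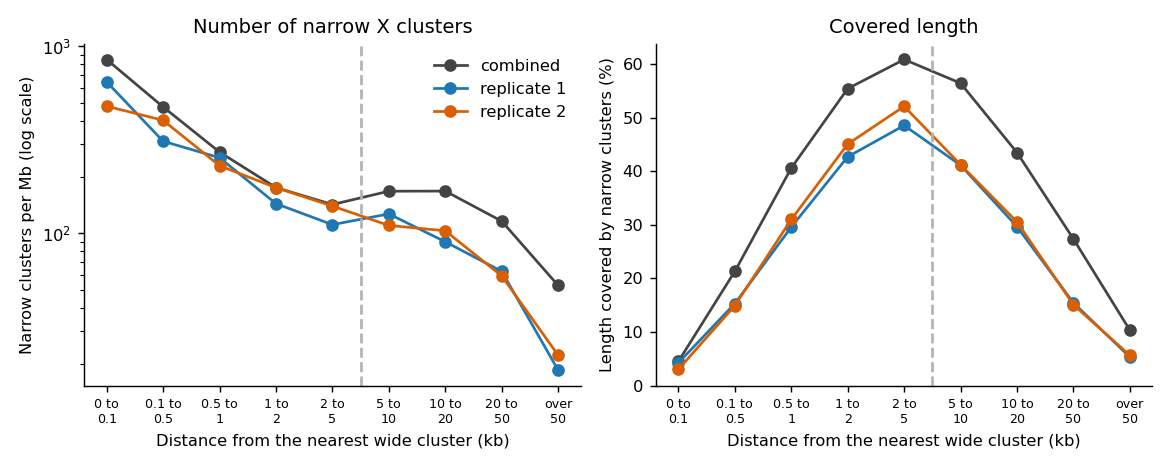
Narrow X clusters per Mb (left, log axis) and the share of length they covered (right, %) against distance from the nearest wide cluster in kb, for the combined list and both replicates. The dashed line marks the limit of 5 kb; in each list the number per Mb was highest in the first 0.1 kb and the covered share was highest from 2 to 5 kb.

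The decline with distance was steep next to the domain. In the combined list 36 members lay less than 100 bp from their neighbour, which is 849 per Mb of the length there, against 142 per Mb from 2000 to 4999 bp. From 5000 to 9999 bp and from 10000 to 19999 bp the density was 168 per Mb, and beyond 50000 bp it was 52.6. In replicate 1 the density was 111 per Mb from 2000 to 4999 bp and 127 from 5000 to 9999 bp. In replicate 2 it was 140 and 110. The covered share followed another course. In the combined list it was 4.52% in the first 100 bp and 60.8% from 2000 to 4999 bp. It was 56.4% from 5000 to 9999 bp and 10.3% beyond 50000 bp. Replicate 1 went from 4.25% to 48.5% and then to 5.32% at the same distances, and replicate 2 from 3.04% to 52.1% and 5.63%. A narrow cluster takes up length beyond its nearest edge, so the number and the covered share need not peak together.

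Short gaps were not limited to the edges of domains. Of the 320 members 213 (66.6%) had another cluster of any width less than 500 bp away, and so did 406 of the 950 isolated clusters (42.7%). Less than 100 bp separated 86 members (26.9%) and 105 isolated clusters (11.1%) from the nearest cluster. The combined list thus kept apart clusters that nearly touched, also far from the domains.

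In the median, the scores of the members were close to those of isolated narrow clusters and far below those of the wide clusters beside them. The score is the authors' value for each cluster, taken here as a log2 value. The median was 0.57 for the members, 0.53 for isolated clusters and 1.91 for the wide neighbours. The difference between the first 2 medians was 0.031 in the combined list. It was 0.033 in replicate 1 and 0.023 in replicate 2 when the rule was applied to those lists (0.028 ± 0.0070, SD, n = 2). The interquartile range of the members alone ran from 0.49 to 0.66. In 302 of 320 pairs the wide neighbour had the higher score, and the median difference over all pairs was 1.20. The rule pairs each member with a wider cluster, and the part of width in this contrast was not tested. For 78 members (24.4%) no replicate cluster of 10 kb or more overlapped the wide neighbour. Wide clusters of this kind, 46 in all, had a median score of 0.75, against 0.55 for the members beside them.

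Scores of the members were much the same at all gaps. The median score was 0.58 for gaps under 100 bp and 0.56 for gaps from 2000 to 4999 bp. Spearman's rho between gap and score was -0.020 across the 320 members, and that between the scores of a member and its neighbour was 0.16. The score went with the width of the narrow cluster instead (rho 0.62). These correlations are across clusters of 1 list, which share its libraries and its calling.

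**Figure D2:**
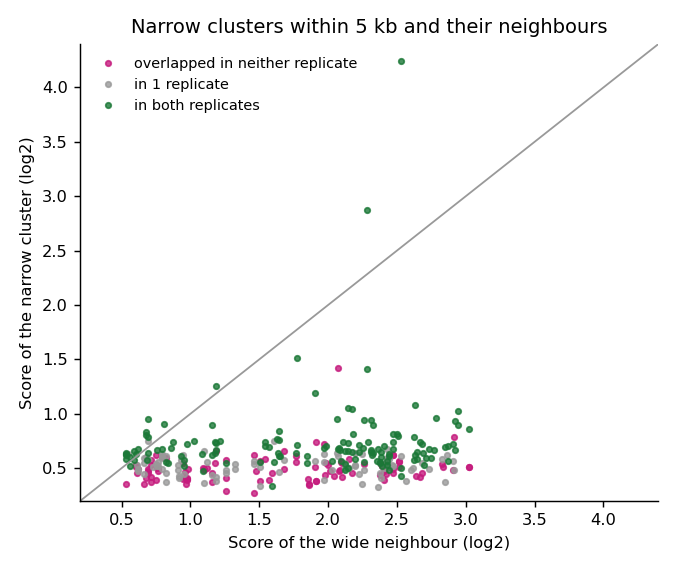
Score of each narrow cluster within 5 kb of a domain (vertical axis, log2) against the score of its wide neighbour (horizontal axis, log2), coloured by the number of replicate lists that overlap the narrow cluster. The line marks equal scores; 302 of 320 clusters lie below it, mostly in a flat band around 0.57, and 18 lie on or above it.

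Only 11 of the 320 members scored above 1. The highest was the cluster from 14176013 to 14178496, which scored 4.25 in the combined list against 3.83 and 4.02 in replicates 1 and 2. It lay 2653 bp to the right of an 88305 bp domain of score 2.53, and neither replicate covered any base of the gap between them. The second, from 22390711 to 22399023, had a combined score of 2.87 and replicate scores of 2.99 and 2.76. Both were single clusters in each replicate: the first measured 2484 bp in the combined list and 1930 and 2008 bp in the replicates, and the second 8313, 8061 and 8238 bp.

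The cluster from 17001170 to 17008822 had a score of 1.52, with 1.60 in replicate 1 and 1.49 in replicate 2. That from 22373784 to 22376805 scored 1.41, with 1.67 and 1.63 in the replicates. It shared its neighbour, the wide cluster from 22378420 to 22389950, with the second highest member. The remaining one of the 5 highest, from 6848121 to 6849172, scored 1.42, was 1052 bp wide and was overlapped in neither replicate. High score thus came with separate clusters in each replicate for 4 of these 5.

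The 18 members that scored at least as high as their neighbour mostly lay beside weak wide clusters. Of these, 16 lay beside a wide cluster that no cluster of 10 kb or more overlapped in either replicate. Such wide clusters numbered 46 of 220, with a median width of 12106 bp and a median score of 0.75, and 78 of the members (24.4%) lay beside 38 of them. The 161 wide clusters that were wide in both replicates had a median width of 48917 bp and a median score of 2.29, and 223 members (69.7%) lay beside 125 of them. The members beside these 2 kinds of neighbour were alike in median width (2402 and 2519 bp) and score (0.55 and 0.57), and this likeness was not tested.

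The members were found in the replicates more often than isolated narrow clusters. A cluster of replicate 1 overlapped 180 of 320 members by at least 1 bp (56.3%), and a cluster of replicate 2 overlapped 179 (55.9%), a mean of 56.1% ± 0.22 (SD, n = 2). Over all 1270 narrow X clusters these shares were 37.2% and 36.5%. Isolated clusters were overlapped in 30.7% and 30.0% of cases, so the difference was 25.7 percentage points ± 0.30 (SD, n = 2). Both replicates overlapped 136 members (42.5%, against 23.1% of all narrow X clusters), and neither overlapped 97 (30.3%, against 49.4%). Exactly 1 overlapped 87 (27.2%), which was near the 27.4% of all narrow X clusters. The combined list holds the same libraries as the replicate lists, so overlap shows where a cluster was called again and is not a test in new samples.

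The members were also wider than isolated clusters, with medians of 2450 and 1688 bp, and wider clusters were overlapped more often. Among clusters of 1500 to 2499 bp, 44.2% ± 1.49 of members and 29.0% ± 3.27 of isolated clusters were overlapped. Among those of 2500 to 4999 bp the shares were 76.3% ± 1.46 and 64.4% ± 3.14 (SD, n = 2 each). In both of these classes the values of the replicates did not overlap between members and isolated clusters. They did overlap below 1500 bp, at 8.09% ± 3.12 and 5.94% ± 0.35, and from 5000 to 9999 bp, at 96.7% ± 2.36 and 96.0% ± 1.12. Members found in both replicates had a median width of 4605 bp and a median score of 0.67, and those found in neither had 1399 bp and 0.49. Clusters below 1500 bp made up 21.25% of the members and 42.5% of the isolated clusters. The narrowest X cluster measured 1001 bp in the combined list and 1301 bp in each replicate list. The part of these widths in the difference between members and isolated clusters was not tested. Read depth was not available, and its part in the recovery of narrow clusters was not tested.

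**Figure D3:**
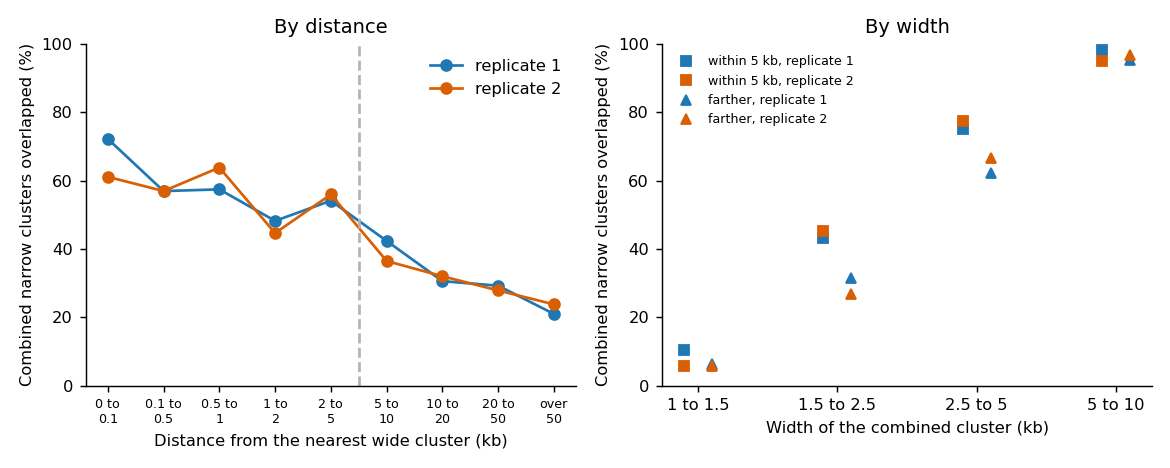
Share of combined narrow X clusters overlapped by 1 bp or more in each replicate (%), against distance from the nearest wide cluster (left, kb) and against their own width (right, kb, with clusters within 5 kb as squares and farther ones as triangles). Overlap falls from 72.2% and 61.1% in the first 0.1 kb to 21.0% and 23.8% beyond 50 kb, and at 1.5 to 5 kb of width the squares lie above the triangles in both replicates.

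Each member was then compared with its wide neighbour in the replicate lists. The rule takes clusters that the combined list of the same libraries kept apart from the domain, so a low share of joins is in part set by the choice of members and is given as a description. A member was called joined when a single cluster of a replicate reached both it and its wide neighbour. This was so for 8 of 320 members in replicate 1 and for 2 in replicate 2 (0.63% and 0.157% of all narrow X clusters), a mean of 1.56% ± 1.33 (SD, n = 2). No member was joined in both replicates. The 10 joined members were 3.13% of the 320, against 0.787% of all narrow X clusters, and all of these were members. A join has to span the gap, so this contrast is in part set by the distance limit of the rule. Overlapped but not joined were 172 members in replicate 1 (53.8%) and 177 in replicate 2 (55.3%), against 36.5% and 36.4% of all narrow X clusters. In both replicates this was so for 132 members (41.25%, against 22.8%). In replicate 1, 165 of the 172 had a replicate cluster that touched no other combined cluster, and in replicate 2, 175 of the 177. The overlap could be small: with at least 50% of the member covered the numbers were 137 and 141. These were 42.8% and 44.1% of the members, against 29.1% and 28.3% of all narrow X clusters. Many of the replicate clusters did not lie beside a domain of their own list. More than 5 kb separated 100 of the 172 and 98 of the 177 from any cluster of 10 kb or more in that replicate. The median distance was 6572 and 6533 bp. For isolated clusters overlapped but not joined, all 292 and 285 lay that far.

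The 10 joined members lay 0 to 118 bp from their neighbours, with a median gap of 51 bp. Only 3 of them were taken into a replicate cluster of 10 kb or more, each in replicate 1. The cluster from 19433439 to 19435420 touched its neighbour with a gap of 0 bp and scored 0.57. In replicate 1 it lay in an 80294 bp cluster of score 3.08, and in replicate 2 it was a separate 1734 bp cluster of score 0.79. The cluster from 6520327 to 6522169 lay 85 bp from its domain, was part of a 230964 bp cluster in replicate 1 and was not called in replicate 2. The third, from 17648701 to 17650064, was reached by a 190235 bp cluster of replicate 1 over 8.28% of its length. In the other 7 a narrow replicate cluster crossed the edge of the combined domain. For the member from 18033228 to 18036965 it was the one of 2 replicate 1 clusters with the smaller overlap, and its width is not given here. For the rest it measured 1463 to 7578 bp. The member from 6224703 to 6230188, 3 bp from its neighbour and of score 0.94, was such a case: it was a 5442 bp cluster in replicate 1 (score 1.01) and a 4415 bp cluster in replicate 2 (score 0.97).

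Short gaps alone did not make a join. Among the 5 members with the shortest gaps, that from 9751176 to 9758613 lay 5 bp from its domain. It was overlapped by 3 clusters in replicate 1 and by 1 in replicate 2 without a join. That from 15955770 to 15957250 lay 8 bp away, scored 0.35 and was overlapped in neither. The cluster from 18110464 to 18111874, with a gap of 2 bp, was joined in replicate 2 through a 1576 bp cluster and was not called in replicate 1.

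The gaps were read for the members with no other cluster between them and the domain. The combined list left these gaps uncovered by the rule itself, so the counts are a description. Of the 230 such members with a gap above 0 bp, 187 had a gap without a single covered base in replicate 1 and 208 in replicate 2, and 168 had one in both. The gap was wholly covered for 7 members in replicate 1 and for 2 in replicate 2. Of all bases in these gaps 2.10% were covered in replicate 1 and 1.04% in replicate 2. When replicate clusters less than 500 bp apart were merged, joined members numbered 23 and 18, and 7 were joined in both. The share over all narrow X clusters was not worked out with this merging, so these counts are a description.

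The reading differed when the same rule was applied to the replicate lists instead. It found 243 narrow clusters beside a domain in replicate 1 and 289 in replicate 2. Read in the other replicate, 61 of the 243 (25.1%, against 7.60% of all 842 narrow X clusters of replicate 1) and 100 of the 289 (34.6%, against 11.6% of 898) were joined to their wide neighbour. Of these, 47 and 87 were joined by a cluster of 10 kb or more. A further 148 (60.9%, against 63.4% of all narrow X clusters) and 147 (50.9%, against 60.7%) were overlapped but not joined in the other replicate. Not found there were 34 (14.0%, against 29.0%) and 42 (14.5%, against 27.7%). Isolated narrow clusters of the replicates were joined in 3 of 599 and 4 of 609 cases. A join asks that 1 cluster span the gap, which a longer gap makes harder, so the contrast with isolated clusters is in part set by distance.

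**Figure D4:**
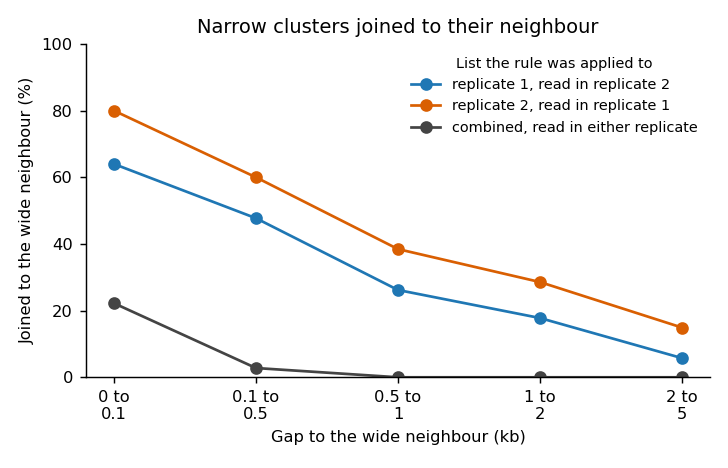
Share of narrow clusters joined to their wide neighbour (%) against the gap to it in kb, for clusters chosen in 1 replicate and read in the other, and for clusters chosen in the combined list and read in either replicate. The share falls with the gap in all 3 series, from 64.0% and 80.0% to 5.75% and 14.9% for the replicates, and reaches 0 from 0.5 kb on for the combined list.

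Joining between the replicates fell with the gap. For clusters of replicate 1 read in replicate 2 it was 64.0% for gaps under 100 bp (16 of 25), 47.7% from 100 to 499 bp, 26.2% from 500 to 999 bp, 17.8% from 1000 to 1999 bp and 5.75% from 2000 to 4999 bp. For clusters of replicate 2 read in replicate 1 it was 80.0% (16 of 20), 36 of 60 clusters, then 38.5%, 28.6% and 14.9% over the same gaps. The order was the same in both directions, and at each gap the clusters of replicate 2 were joined more often.

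The same clusters were also read in the combined list. Of the replicate clusters beside a domain, 135 of 243 in replicate 1 (55.6%, against 19.5% of all its narrow X clusters) lay in 1 combined cluster with their wide neighbour. In replicate 2 it was 180 of 289 (62.3%, against 23.9%). The rest, 108 (44.4%, against 79.8%) and 109 (37.7%, against 75.8%), were part of other combined clusters. None was missing from the combined list, and of all narrow X clusters only 6 of 842 and 2 of 898 were. The combined list holds the same libraries, so these counts are a description. The contrast in joined shares with all narrow X clusters is in part set by distance. How the authors combined the replicates is not given in the sources used here, so the part of that step in the joins was not tested.

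**Figure D5:**
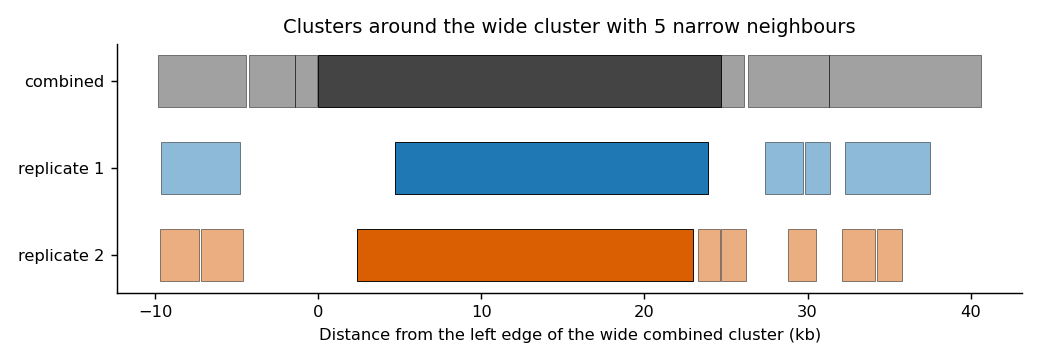
Clusters of the 3 lists around a wide combined cluster with 5 narrow neighbours, as distance in kb from its left edge; wide clusters are dark and narrow ones pale. The domain and the outer neighbours recur in each replicate, while the neighbours next to the combined edges fall on uncovered stretches in replicate 1.

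The region with the most narrow neighbours shows these cases side by side. The wide cluster from 18085753 to 18110461 (24709 bp, score 1.15) had 5 members beside it, as had a 14236 bp one from 9710369. In its place replicate 1 had a single wide cluster of 19177 bp and replicate 2 one of 20620 bp. The replicate domains began inside the combined one, at 18090454 and 18088112, and ended inside it, at 18109630 and 18108731. Replicate 2 also had a separate narrow cluster inside the combined domain, from 18109043 to 18110388. On the left, the member from 18075934 to 18081297 (score 0.90) was found in both replicates, with scores of 1.09 and 0.95. The members from 18081504 (score 0.46) and from 18084336 (score 0.37), nearer to the domain, were found in neither. On the right, the member from 18112084 to 18117064 (score 0.62) was found in both.

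The 5 widest members were all overlapped in both replicates, 2 of them by several clusters in each. The widest, from 17335928 to 17345771, scored 0.66 and lay 4122 bp from its domain. It was covered to 47.0% by 2 clusters in replicate 1 and to 74.5% by 1 cluster in replicate 2. Its gap was nearly filled by another member, from 17345787 to 17349796, which was covered to 77.1% in replicate 1 and to 36.3% in replicate 2. The member from 873762 to 883196 was overlapped by 2 and 3 clusters, and that from 18588022 to 18597544 by 3 and 2. The remaining 2 of the 5 widest, from 12770830 and from 3660375, were each overlapped by 1 cluster in each replicate, over 55.0% to 77.4% of their length.

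The members called in neither replicate included few of high score. After the 1.42 of the cluster from 6848121, the highest were 0.79 (from 1541410 to 1542412), 0.74 (from 14480 to 17764), 0.72 (from 4276856 to 4278020) and 0.66 (from 14498408 to 14499867). Of these 5, the cluster from 14480 was the widest, at 3285 bp, and the others measured 1003 to 1460 bp. The narrowest cluster called in either replicate on the X was 1301 bp wide.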

How the data were processed

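H4K16ac ChIP-seq was summarised by the authors in 3 deposited lists of enriched and depleted regions, 1 for each ChIP replicate and 1 combined. The aligner was Bowtie 0.12.7 according to the submitters' processing notes, and the genome FlyBase release 5 per the file headers. The region caller, the calling thresholds and the way of combining were not given in the sources used here. The deposited score was taken as log2, since 7.73% to 13.7% of the scores of a list fell within 1e-06 of a base 2 logarithm of some fraction of integers no larger than 60, after 1 shift per list. Base e or base 10 gave at most 1.18%. Wide clusters take this scale over from narrow ones, and scores of different lists were not brought to a common scale.

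Depleted regions were set aside, and 0 lay on the X. Gaps are the bases between 2 edges. Overlap of 1 bp counted. Values per replicate are given with mean and SD. Only lists of the ChIP group were used, so groups of samples could not be compared, and clusters were not tested as if they were replicates. The interval functions were tested on simulated lists. Clusters named in the text were the 5 of highest score, the 5 widest, the 5 with the shortest gaps, those at the limits, the 5 of highest score found in neither replicate, and those beside the wide cluster with most members. The rule also asked for members joined in both replicates, of which there were 0. Those joined in either were named after their values were seen. The members, lists and alternatives were chosen with earlier results of these data known. Software was Python 3.11.15 with matplotlib 3.10.9, pandas 2.3.3, numpy 2.4.6 and scipy 1.17.1.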

Additional observations from a re-analysis of the deposited data

How the results depend on the processing

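The number of narrow clusters beside a domain, 320, was 211 with a limit of 2000 bp and 490 with 10000 bp. It was 220 when wide meant 20000 bp, 253 in the 50% of combined clusters with the highest score, and 243 and 289 by the rule in the replicates. The overlapped share, 56.1%, was 44.8% when 50% of the cluster had to overlap, 56.6% at 2000 bp, 50.3% at 10000 bp, 65.8% in the 50% with the highest score and 58.5% for the 223 members whose neighbour was wide in both replicates, an alternative chosen after seeing the data. It was 55.9% to 56.3% with 1 replicate left out. The joined share, 1.56%, was 6.41% with replicate clusters less than 500 bp apart merged, 2.37% at 2000 bp, 1.02% at 10000 bp, and 0.625% without replicate 1 to 2.5% without replicate 2. Counting only joins by replicate clusters of 10 kb or more, also chosen after seeing the data, gave 0.469%. The difference in overlapped share from isolated clusters, 25.7 points, was 21.1 with 50% overlap, 23.7 at 2000 bp, 21.9 at 10000 bp, 31.4 in the 50% with the highest score, and 25.5 to 25.9 with 1 replicate left out. The difference in median score, 0.031, was 0.020 at 10000 bp and 0.023 to 0.033 with 1 replicate left out. The density ratio, 3.05, was 1.97 in the combined list, 3.85 at 2000 bp, and 2.85 to 3.25 with 1 replicate left out. No direction changed under these alternatives, and the cause of each shift was not tested. No paired analysis was possible because only the ChIP group was used and no result came from a test between groups. Depth is unknown, so clusters not called in a replicate may have been below its limit of detection.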
